A study of Mus musculus with 24 samples.

Results

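Pparg and 9 genes that carry fatty acids into the hepatocyte or bind them there were examined in liver RNA-Seq of lipodystrophic mice. The 10 genes were taken by name from the 23972 genes counted: Pparg, Cd36, Fabp1, Fabp2, Fabp4, Lpl, Vldlr, Slc27a2, Slc27a4, and Slc27a5. Their levels were compared across 4 groups of female mice, which were defined by genotype and by treatment. Controls carried floxed Lmna alleles without Cre (Lmna fl/fl), and Lmna ADKO mice carried the same alleles with Adipoq-Cre, which deletes Lmna in adipocytes and leaves the mice with little adipose tissue. Mice of each genotype received an AAV8 vector encoding FGF21 or vehicle. All groups were housed at 22°C, were 12 to 14 weeks old at the start, ate a 60% high-fat diet for 4 weeks before the injection, and were euthanized 8 weeks after it. The libraries numbered 7 for control vehicle, 3 for control FGF21, 6 for Lmna ADKO vehicle, and 8 for Lmna ADKO FGF21. The vehicle was a buffer without an empty vector, so FGF21 and the vector cannot be told apart.

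PPARγ, encoded by Pparg, is a nuclear receptor that is activated by fatty acids and binds DNA as a heterodimer with RXR. It is most abundant in adipocytes, where it drives fat storage, and in hepatocytes it is normally scarce but is known to rise in fatty liver. Fatty acids reach hepatocytes bound to albumin, taken up with the help of CD36 and the fatty acid transport proteins of the Slc27a family, or in lipoproteins, which LPL hydrolyzes and receptors such as VLDLR bind. Inside the cell, fatty acid binding proteins of the Fabp family carry them to sites of storage or oxidation.

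The receptor's known binding element is a direct repeat of the half-site AGGTCA with 1 base between, AGGTCANAGGTCA. It was searched on both strands of the RefSeq promoter windows of GRCm38.p6, each with 250 bases before and 50 after a transcription start. Of the 10 genes, 7 have windows there, 10 in all. The windows of Cd36 and Fabp1 each held a match with at most 2 mismatches in the 12 scored bases, as did 3.86% of the 32851 windows of all genes. The closest stretch in the Fabp2 window had 3 mismatches, a closeness that 24.6% of all windows reached. These 3 stretches are shown because they had at most 3 mismatches and lay mostly outside the exons of their gene. They are read along the gene's strand, with the element, on the opposite strand in each, in capitals.
Cd36, chr5:17835927-17835979, minus strand, 2 mismatches: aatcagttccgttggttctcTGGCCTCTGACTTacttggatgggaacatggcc
Fabp1, chr6:71199792-71199844, plus strand, 1 mismatch: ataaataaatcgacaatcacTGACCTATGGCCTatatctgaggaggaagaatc
Fabp2, chr3:122894915-122894967, plus strand, 3 mismatches: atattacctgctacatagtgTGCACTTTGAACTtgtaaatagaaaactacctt
The Slc27a2 window also had 3 mismatches at its closest, in a stretch with 53 bases in an exon, which is not shown. The 3 Pparg windows had 4 each, the Vldlr windows 4 and 5, and the Slc27a4 window 5. A match describes letters and is not evidence of binding.

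Library totals ran from 19863304 to 21510054 counts, and a member had between 127 and 95010 counts in a library. Levels are given in CPM, the count scaled to library size with edgeR's TMM factors, and errors are SDs. Each gene was tested with edgeR's quasi-likelihood test in 1 fit of the 4 groups, with Benjamini-Hochberg adjustment over all genes, and passed where it changed by more than 1.5-fold and its adjusted p was below 0.05. Lmna had 284 to 812 counts in every library, and Adipoq-Cre is not expressed in hepatocytes. With vehicle, Lmna was 18.6 ± 2.47 CPM in control and 26.7 ± 2.57 CPM in Lmna ADKO livers, without overlap. That log2 fold change was 0.52 (adjusted p = 0.00322 from edgeR), under the fold threshold. The treated groups are labelled a rescue, which was read as FGF21 from the study's text. Fgf21 was 4.01 ± 3.18 CPM in control vehicle and 4.78 ± 2.29 CPM in control FGF21 livers, and 7.99 ± 2.48 CPM and 5.36 ± 2.41 CPM in Lmna ADKO livers, so its counts do not mark the treated groups. In 3 libraries, control vehicle 3, control FGF21 3, and Lmna ADKO FGF21 7, longer genes had lower levels relative to the other libraries (slopes of log2 CPM per log2 length of -0.15, -0.29, and -0.33, against -0.11 to 0.13 in the others).

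Per kilobase of transcript, Fabp1 was the highest of the members in control vehicle livers with 5202 CPM per kb, followed by Slc27a2 with 574 and Slc27a5 with 454. Fabp2 stood at 96.8 CPM per kb and Cd36 at 43.1. Slc27a4, Fabp4, Pparg, Lpl, and Vldlr were the scarcest, between 2.42 and 11.6 CPM per kb. In Lmna ADKO vehicle livers, Cd36 reached 103 CPM per kb, Fabp4 21.8, and Pparg 12.8, which placed Fabp4 above Slc27a4 with 15.7. Members were thus spread over more than 3 orders of magnitude, and the most abundant one was among those that did not pass the test.

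**Figure D1:**
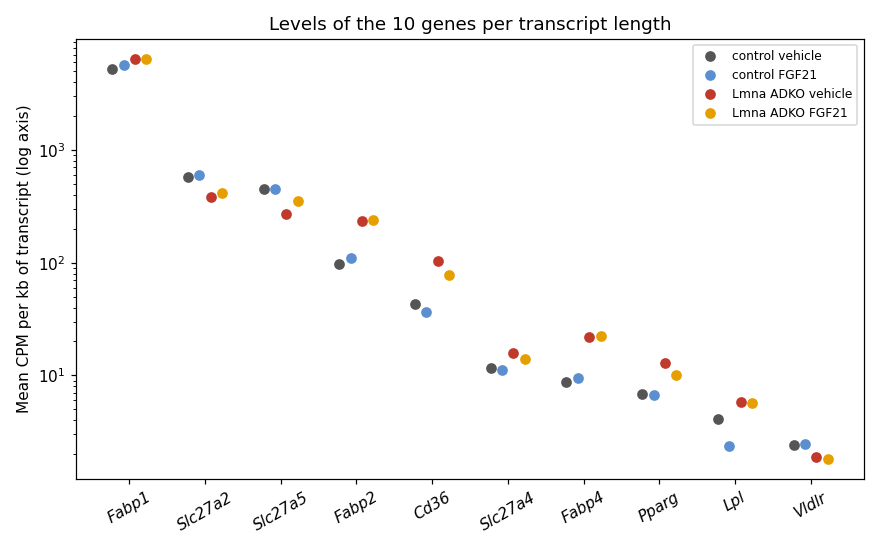
Mean level of each of the 10 genes in CPM per kilobase of its principal transcript (log axis), with 1 point per group, ordered by the level in control vehicle livers. Fabp1 is highest, at 5202 to 6439 CPM per kb, and Vldlr lies at 1.81 to 2.44.

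Lipodystrophic and control livers were first compared under vehicle, to ask how fatty acid uptake genes differ when adipose tissue is missing. Pparg, Cd36, Fabp2, and Fabp4 rose and Slc27a5 fell, by 1.69-fold to 2.52-fold. Of the 10 members, 5 passed the test, whereas 8.48% of all genes did. The median log2 fold change was 0.47 over the members and 0.003 over all genes. With the adjusted p alone, 7 members and 15.1% of all genes passed, the other two members being Slc27a2, lower, and Slc27a4, higher. For these 7 members every Lmna ADKO library lay outside the range of the control libraries, as in 7.95% of all genes.

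Pparg (ENSMUSG00000000440, chr6:115360951-115490399, GRCm38) ranged from 9.12 to 16.03 CPM in control vehicle libraries, with a median of 11.8, and from 18.0 to 27.0 CPM in Lmna ADKO vehicle libraries, with a median of 23.0. The lowest Lmna ADKO library was above the highest control. Group means were 12.1 ± 2.57 CPM (SD) for the 7 controls and 22.6 ± 3.15 CPM (SD) for the 6 Lmna ADKO livers. The log2 fold change was 0.90 (SE 0.13, adjusted p = 1.74e-05 from edgeR). With FGF21, the 3 control libraries held 9.08, 11.99, and 14.6 CPM, and the 8 Lmna ADKO libraries ran from 15.3 to 21.8 CPM around a median of 18.3. Again the groups did not overlap, and the log2 fold change was 0.59 (SE 0.165, adjusted p = 0.0365 from edgeR), which is 1.51-fold and just past the threshold. It was 0.51 (adjusted p = 0.234) among libraries with 4-digit animal numbers 0.43 (adjusted p = 0.184) without control FGF21 library 1, 0.60 (adjusted p = 0.118) without control FGF21 library 2, and 0.54 (adjusted p = 0.0711) without Lmna ADKO FGF21 library 3. Without Lmna ADKO FGF21 library 7, at 0.57, it missed the fold threshold. Ordered by mean level, Lmna ADKO vehicle came first, then Lmna ADKO FGF21, and last control vehicle and control FGF21, which differed by less than their SD.

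**Figure D2:**
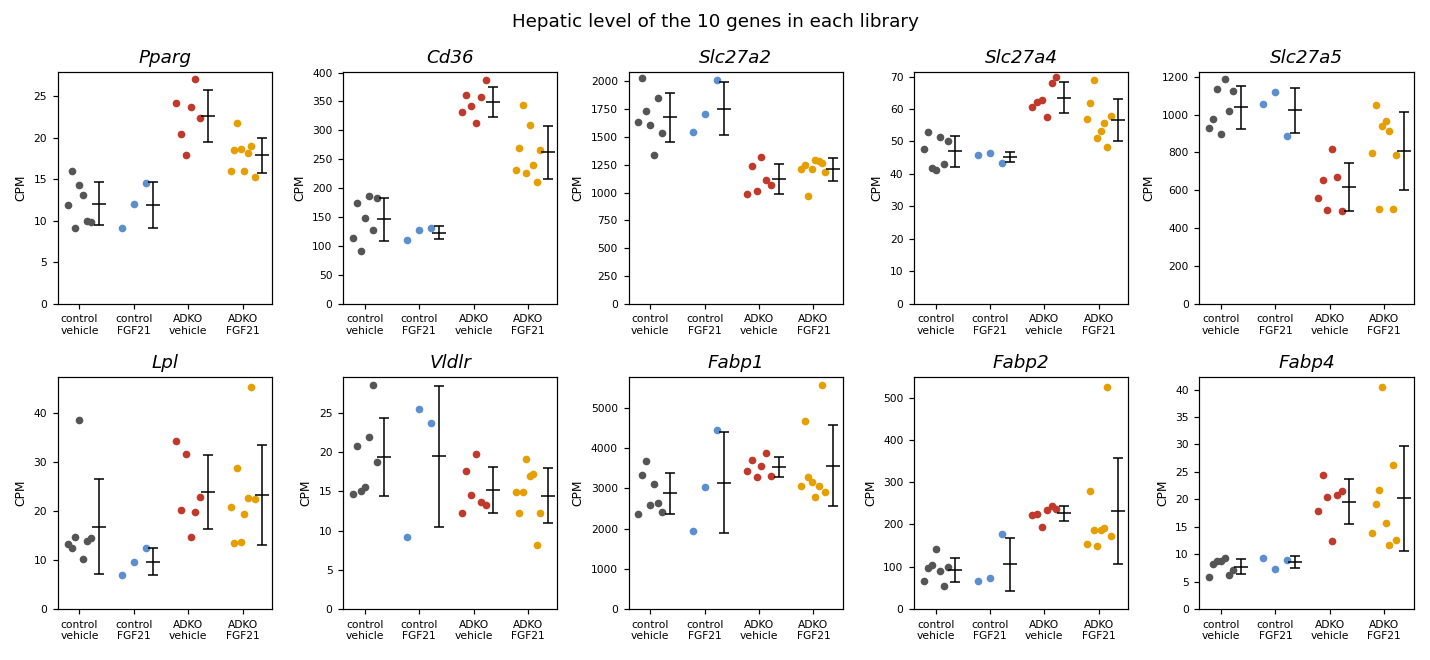
Level of each of the 10 genes in CPM (vertical axes from 0) in every library of the 4 groups. Points are libraries, and black bars give the group mean ± SD. For Pparg, Cd36, Fabp4, and Slc27a4, all Lmna ADKO libraries lie above all control libraries within each treatment, and for Slc27a2 all lie below.

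Cd36 encodes the fatty acid translocase, a scavenger receptor that brings long-chain fatty acids across the plasma membrane. In control vehicle libraries Cd36 (ENSMUSG00000002944, chr5:17781690-17888801) ranged from 91.4 to 187 CPM, with a median of 148, and in Lmna ADKO vehicle libraries from 312 to 386 CPM, with a median of 350. The gap between the groups was wider than either range. The log2 fold change was 1.25 (SE 0.142, adjusted p = 5.82e-07 from edgeR), and the means were 146 ± 37.2 CPM for the 7 controls and 349 ± 25.7 CPM for the 6 Lmna ADKO livers. FGF21-treated controls had 111, 127, and 132 CPM, and FGF21-treated Lmna ADKO livers had 211 to 345 CPM, with a median of 253. Here too no library crossed over, and the log2 fold change was 1.09 (SE 0.183, adjusted p = 0.00079 from edgeR). Cd36 passed the test in both genotype comparisons under every alternative tried, with log2 fold changes between 1.01 and 1.32.

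Of the 3 fatty acid transport proteins, Slc27a5 and Slc27a2 were lower in Lmna ADKO livers with vehicle, and Slc27a4, like Cd36, was higher. Slc27a5 (ENSMUSG00000030382, chr7:12988346-12998192) encodes FATP5, a liver protein that takes up fatty acids and activates bile acids for conjugation. It ranged from 896 to 1191 CPM, with a median of 1017, in control vehicle libraries and from 490 to 819 CPM, with a median of 608, in Lmna ADKO vehicle libraries. All 6 Lmna ADKO libraries were below all controls, and Slc27a5 fell by 0.75 on the log2 scale (SE 0.16, adjusted p = 0.00147 from edgeR). With FGF21 the controls held 1057, 1120, and 889 CPM, and Lmna ADKO livers held 501 to 1052 CPM. Of the 8 Lmna ADKO libraries, 4 lay below all controls, and the log2 fold change was -0.34 (95% interval -0.73 to 0.05, adjusted p = 0.377 from edgeR).

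Slc27a2 (ENSMUSG00000027359, chr2:126552407-126588243) encodes FATP2, which transports fatty acids and activates very long-chain ones. Its range was 1338 to 2032 CPM in control vehicle and 985 to 1317 CPM in Lmna ADKO vehicle livers, with medians of 1632 and 1092 CPM. No libraries overlapped, and the log2 fold change was -0.58 (SE 0.113, adjusted p = 0.00064 from edgeR), a 1.49-fold lower level that stayed just under the fold threshold. With FGF21 the controls held 1542, 1707, and 2014 CPM and the Lmna ADKO libraries 971 to 1291 CPM, again without overlap. That log2 fold change was -0.54 (SE 0.133, adjusted p = 0.0181 from edgeR), 1.45-fold lower, and it passed the fold threshold without control FGF21 library 1 (-0.62). Over all 19 alternatives it ran from -0.62 to -0.43, with adjusted p from 0.000207 to 0.179. An exon of the antisense gene Gm26697 overlaps the exons of Slc27a2, and the strand setting of the counting is not stated.

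Slc27a4 (ENSMUSG00000059316, chr2:29802634-29817522) encodes FATP4, an acyl-CoA synthetase known from intestinal fat absorption. Levels ran from 41.2 to 53.0 CPM in control vehicle and from 57.5 to 70.0 CPM in Lmna ADKO vehicle livers. The ranges did not touch, and the log2 fold change was 0.44 (SE 0.0894, adjusted p = 0.00104 from edgeR), or 1.35-fold, under the fold threshold. With FGF21 it was 0.33 (SE 0.111, adjusted p = 0.0968 from edgeR), with controls at 45.9, 46.4, and 43.3 CPM and Lmna ADKO libraries at 48.2 to 68.97 CPM. The 2 FGF21 groups were apart as well, and the SDs of Slc27a4 in the 4 groups were 1.64 to 6.50 CPM around means of 45.2 to 63.5 CPM.

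**Figure D3:**
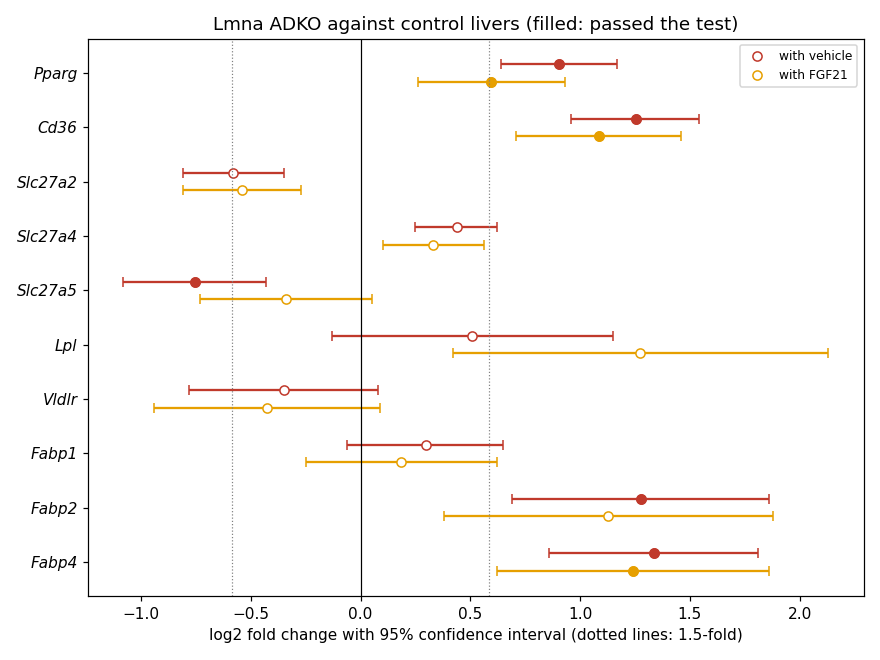
Log2 fold change of each of the 10 genes in Lmna ADKO against control livers with vehicle (red) and with FGF21 (orange), with 95% confidence intervals from the edgeR fit. Filled points passed the test, open points did not, and dotted lines mark 1.5-fold. Pparg, Cd36, and Fabp4 are filled for both treatments, and Slc27a2 and Slc27a4 lie near or within the dotted lines.

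Lpl and Vldlr handle fatty acids that arrive in lipoproteins. Lpl (ENSMUSG00000015568, chr8:68880491-68907448) encodes lipoprotein lipase, which is normally made mainly by adipose tissue and muscle. Control vehicle libraries ranged from 10.3 to 38.7 CPM, with a median of 13.8, and Lmna ADKO vehicle libraries from 14.7 to 34.4 CPM, with a median of 21.6. Control library 4, at 38.7 CPM, was above every Lmna ADKO library, while the other 6 controls were at 14.8 CPM or less. The log2 fold change was 0.51 (95% interval -0.13 to 1.15, adjusted p = 0.303 from edgeR), and without control library 4 it was 0.86 (adjusted p = 0.0221). With FGF21 the controls held 6.94, 9.59, and 12.5 CPM and the Lmna ADKO libraries 13.5 to 45.5 CPM. These groups did not overlap, yet the log2 fold change of 1.27 (SE 0.41) missed the threshold (adjusted p = 0.0882 from edgeR), and it passed under DESeq2 (adjusted p = 0.00945) and among the genes kept by filterByExpr (adjusted p = 0.0446).

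Vldlr (ENSMUSG00000024924, chr19:27216484-27254231) encodes the very low-density lipoprotein receptor. Control vehicle livers had 14.6 to 28.5 CPM and Lmna ADKO vehicle livers 12.2 to 19.8 CPM, with overlap. The log2 fold change was -0.35 (95% interval -0.78 to 0.08, adjusted p = 0.29 from edgeR). With FGF21 it was -0.43 (95% interval -0.94 to 0.09, adjusted p = 0.4 from edgeR), and control library 1, at 9.17 CPM, lay far below the other controls at 25.5 and 23.8 CPM.

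The 3 binding proteins are close relatives with different home tissues: Fabp1 is the liver form, Fabp2 the intestinal form, and Fabp4 the form of adipocytes and macrophages. Fabp1 (ENSMUSG00000054422, chr6:71199827-71205023) ranged from 2371 to 3690 CPM in control vehicle and from 3273 to 3888 CPM in Lmna ADKO vehicle livers, and the ranges overlapped. Its log2 fold change was 0.30 (95% interval -0.06 to 0.65, adjusted p = 0.282 from edgeR) with vehicle and 0.18 (95% interval -0.25 to 0.62, adjusted p = 0.722 from edgeR) with FGF21. Both of its highest values belonged to FGF21-treated Lmna ADKO livers, 5582 CPM in library 7 and 4675 CPM in library 2. The Fabp1 transcript is the shortest of the members (553 bases), and these libraries had the lowest length slopes of their group (-0.33 and -0.11). Without the 3 libraries, the log2 fold change of Fabp1 was 0.37 (adjusted p = 0.0346, under the fold threshold) with vehicle and 0.40 (adjusted p = 0.268) with FGF21.

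Fabp2 (ENSMUSG00000023057, chr3:122895072-122899506), in contrast, was 54.3 to 143 CPM in control vehicle and 194 to 244 CPM in Lmna ADKO vehicle livers, with medians of 97.5 and 230 CPM. No library overlapped, and Fabp2 rose by 1.27 on the log2 scale (SE 0.28, adjusted p = 0.0029 from edgeR). With FGF21 the controls held 67.3, 72.6, and 178 CPM and the Lmna ADKO libraries 150 to 524 CPM, with a median of 188. Control library 3 and Lmna ADKO library 7, the highest of each group, are among the 3 libraries that differ on gene length, and the Fabp2 transcript is short (965 bases). The part of gene length in these values was not tested. The other 2 controls lay below all Lmna ADKO libraries. The log2 fold change was 1.13 (SE 0.363, adjusted p = 0.086 from edgeR). It was 1.72 (adjusted p = 0.0327) without control library 3 and 1.44 (adjusted p = 0.00812) without the 3 libraries. Over all 19 alternatives it ran from 0.82 to 1.72, with adjusted p from 0.00812 to 0.305, and it passed in 4.

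Fabp4 (ENSMUSG00000062515, chr3:10204088-10208576) was low in controls, at 5.76 to 9.29 CPM with vehicle, and reached 12.5 to 24.4 CPM in Lmna ADKO vehicle livers. Every Lmna ADKO library was above every control, and the log2 fold change was 1.34 (SE 0.231, adjusted p = 0.000279 from edgeR). With FGF21 the values were 9.27, 7.29, and 9.03 CPM in controls and 11.7 to 40.5 CPM in Lmna ADKO livers, and the log2 fold change was 1.24 (SE 0.3, adjusted p = 0.0188 from edgeR). The groups were again apart, but the adjusted p rose to 0.123 among 4-digit libraries, 0.122 without the 3 libraries, and 0.0504, 0.105, and 0.091 without control library 1, 2, and 3.

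With FGF21, 3 of the 10 members passed in the genotype comparison, Pparg, Cd36, and Fabp4, all higher, against 2.88% of all genes. By the adjusted p alone it was 4 members, with Slc27a2 added, against 3.85%, and 6 members did not overlap between groups, against 5.35%. The count rests on only 3 control libraries. It was 1, Cd36, without control FGF21 library 2, with only the FGF21 groups in the fit, or with the animal-number series as a covariate, and 5 with genes kept by filterByExpr.

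Fabp4, Cd36, Lpl, and Pparg are also expressed in adipocytes, macrophages, and endothelium, and in a tissue homogenate more such cells cannot be told apart from more RNA per cell. Of the 8 adipocyte markers, Adipoq and Plin1 had at most 13 and 6 counts in any library, and Lep was at 0 in all groups but control FGF21. Their summed level was 21.5 to 27.3 CPM in control vehicle and 15.3 to 25.4 CPM in Lmna ADKO vehicle livers, and Adrb3 was lower. Most of that sum was Lipe, with means of 17.9 and 16.1 CPM, and Adrb3, with 4.93 and 1.84 CPM. Cfd ran the other way, at 0.42 and 1.48 CPM, without passing. Adipoq, Plin1, Lep, Retn, and Adig each averaged at most 0.101 CPM in these groups. Of the 10 macrophage markers, 1, Gpnmb, rose in Lmna ADKO vehicle livers, and their sum was 523 to 805 CPM in controls and 380 to 679 CPM in Lmna ADKO livers. The 9 endothelial markers summed to 304 to 394 CPM and 293 to 366 CPM, with Lyve1 and Vwf higher. Sums of the hepatocyte markers were lower in Lmna ADKO vehicle livers, at 71213 to 107816 CPM against 82973 to 143566 CPM, with Cps1 and Cyp2e1 lower, and those of the stellate markers higher, at 89.6 to 134 CPM against 75.0 to 110 CPM, with Lrat and Acta2 higher. The 4 measured enterocyte markers, relevant to Fabp2, summed to 17.0 to 28.3 CPM in controls and 9.88 to 17.1 CPM in Lmna ADKO livers. Nearly all of these sums was Lgals4, which was lower, with means of 21.95 CPM in controls and 12.36 CPM in Lmna ADKO livers. Cdh17, Rbp2, and Lct each averaged at most 0.0438 CPM. Cholangiocyte markers summed to 3.74 to 7.96 CPM and 7.06 to 10.1 CPM, with 0 of 4 past the test, and pancreatic acinar markers to at most 0.0927 CPM in any library. With FGF21, adipocyte markers summed to 21.5 to 24.6 CPM in controls and 15.4 to 27.6 CPM in Lmna ADKO livers, and macrophage markers to 527 to 901 CPM and 403 to 801 CPM. Of all these markers, Cyp2e1, Adrb3, and Lgals4 were lower and Lyve1 higher there. The part of these cell types in the members' differences was not tested.

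Mice are identified in the labels by numbers of 3 or 4 digits, and 6 of 7 control vehicle mice have 3 digits while 5 of 6 Lmna ADKO vehicle mice have 4. With this series as a covariate, 6 members passed in the vehicle comparison. The log2 fold changes were then 1.02 for Pparg (adjusted p = 8.1e-05), 1.20 for Cd36 (adjusted p = 3.63e-05), 1.08 for Fabp2 (adjusted p = 0.0397), 1.55 for Fabp4 (adjusted p = 0.000695), -0.78 for Slc27a5 (adjusted p = 0.00927), and -0.64 for Slc27a2 (adjusted p = 0.00312). A comparison within 4-digit numbers was not possible there, because 1 control remains.

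FGF21 was then compared with vehicle within each genotype, to ask whether it shifts these genes. No member passed in controls, where 0.0542% of all genes did, and none in Lmna ADKO mice, where 0% did. At an unadjusted p under 0.05 there were 0 members in controls, against 1476 of the 23972 genes, and 3 in Lmna ADKO mice, against 1608. DESeq2 called 0 members in either genotype. In Lmna ADKO mice, mean Pparg was 22.6 ± 3.15 CPM with vehicle and 17.9 ± 2.12 CPM with FGF21, and the log2 fold change was -0.34 (95% interval -0.59 to -0.08, adjusted p = 0.704 from edgeR). Of the 8 treated libraries, 3 lay below all vehicle libraries.

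Cd36 showed more separation, with 7 of 8 treated Lmna ADKO libraries below all 6 vehicle libraries and 1, library 3, at 345 CPM within their range. Means were 349 ± 25.7 and 262 ± 45.4 CPM, and the log2 fold change was -0.41 (95% interval -0.69 to -0.13, adjusted p = 0.66 from edgeR). For Slc27a5 the shift ran the other way, from 616 ± 126 to 807 ± 208 CPM, with a log2 fold change of 0.39 (95% interval 0.07 to 0.71, adjusted p = 0.704 from edgeR) and 4 of 8 treated libraries above all vehicle libraries. The direction of these 3 values was the same under all 22 alternatives, and none passed after adjustment. Treated library 3 also had the highest Pparg (21.8 CPM) and Slc27a4 (68.97 CPM), and the lowest Slc27a2 (971 CPM) of its group.

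For the other members in Lmna ADKO mice, log2 fold changes lay between -0.16 for Slc27a4 (95% interval -0.34 to 0.01) and 0.11 for Slc27a2 (95% interval -0.12 to 0.33). Lpl had the widest interval, -0.66 to 0.58, which spans a 1.5-fold decrease. In controls the largest value was that of Lpl, -0.80 (95% interval -1.65 to 0.04, adjusted p = 0.771 from edgeR), which was -0.45 without control vehicle library 4. Next came Cd36, -0.25 (95% interval -0.61 to 0.11). Pparg there was 12.1 ± 2.57 CPM with vehicle and 11.9 ± 2.74 CPM with FGF21, a log2 fold change of -0.03 (95% interval -0.36 to 0.31).

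**Figure D4:**
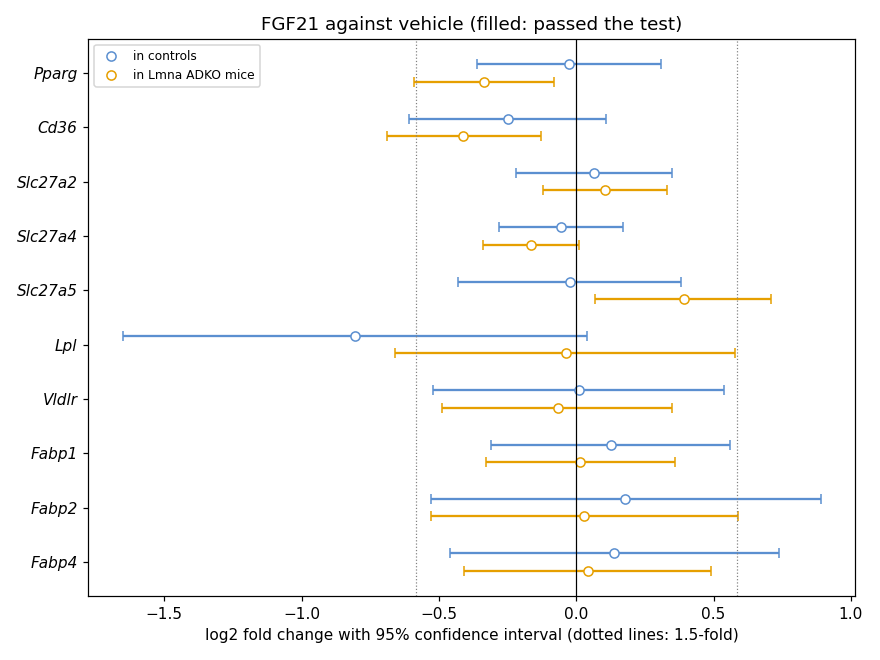
Log2 fold change of each of the 10 genes with FGF21 against vehicle in controls (blue) and in Lmna ADKO mice (orange), with 95% confidence intervals from the edgeR fit. No point is filled, since no gene passed the test, and in Lmna ADKO mice the intervals of Pparg and Cd36 lie below 0 and that of Slc27a5 above 0.

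The difference between genotypes in the FGF21 effect was tested as an interaction, in which 0 members and 0.00417% of all genes passed, and DESeq2 also called 0 members. No member had an unadjusted p under 0.05, against 1165 of the 23972 genes. The interaction was -0.31 for Pparg (95% interval -0.73 to 0.11) and -0.16 for Cd36 (95% interval -0.62 to 0.29) on the log2 scale. For Slc27a5 it was 0.41 (95% interval -0.10 to 0.93), and for Lpl 0.77 (95% interval -0.28 to 1.81), or 0.41 without control vehicle library 4.

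Across the 24 libraries, log2 CPM of Cd36 followed that of Pparg with a Pearson r of 0.87, and r was 0.80 for Fabp2, 0.79 for Slc27a4, 0.75 for Fabp4, 0.55 for Lpl and Fabp1, and -0.23 for Vldlr. Slc27a2 and Slc27a5 ran opposite to Pparg, each with an r of -0.71. Genotype is shared by these points. After the group means were removed, r was 0.40 for Cd36, 0.44 for Fabp2, and 0.43 for Fabp1, and no more than 0.24 in size for the other members. Of the pairs among the other members, picked after their values were seen, Cd36 and Slc27a4 had an r of 0.91 over all libraries and 0.67 within groups, and Lpl and Slc27a5 -0.76 and -0.74. Among 12491 other genes whose log2 CPM averaged 0 or more, those most like Pparg over all libraries were Clstn3 (r = 0.91), Gprc5b, Lamb3, Arsa, and Mapre1 (r = 0.89 each). Within groups their r was 0.48 to 0.62. Cd36 ranked number 15 over all libraries and number 532 within groups. Without the 3 libraries that differ on gene length, r within groups was 0.26 for Cd36, 0.48 for Fabp2, and 0.58 for Fabp1.

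**Figure D5:**
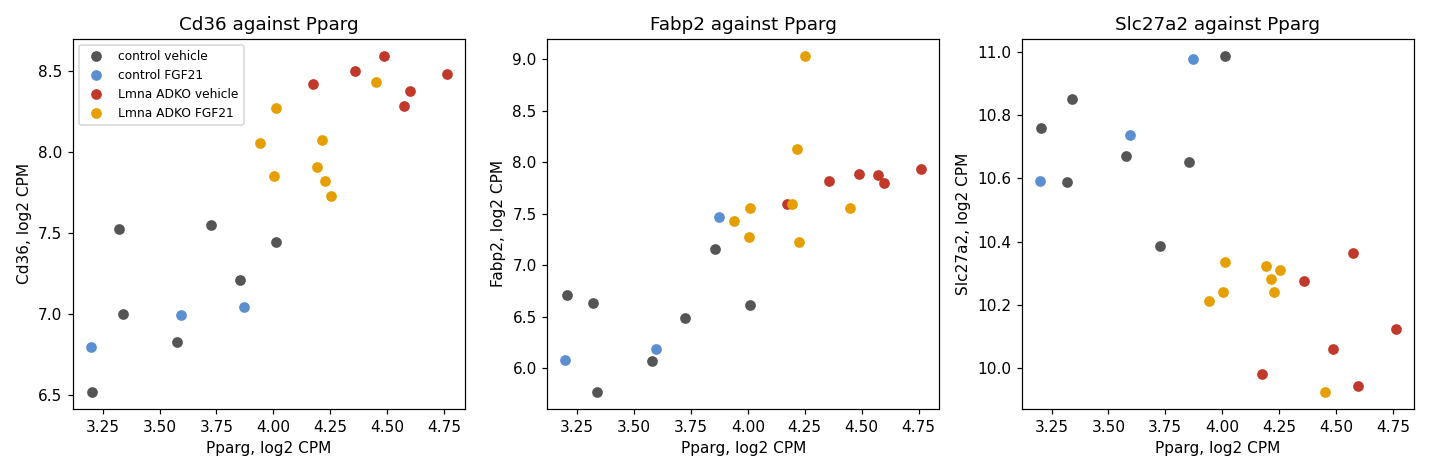
Log2 CPM of Cd36, Fabp2, and Slc27a2 against log2 CPM of Pparg, with 1 point per library colored by group. Most Lmna ADKO libraries lie to the right, with some overlap. All lie higher than controls for Cd36 and lower for Slc27a2, and most lie higher for Fabp2. Within groups r is 0.40 for Cd36 and 0.44 for Fabp2. For Slc27a2 it is 0.13, against -0.71 over all libraries.

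The wider PPAR pathway was described through lists of genes. Of 14 receptors, partners, and coregulators, 0 passed in either genotype comparison, against 8.48% of all genes with vehicle and 2.88% with FGF21. By the adjusted p alone 0 passed with FGF21, against 3.85% of all genes. With vehicle 5 did, all lower, against 15.1% of all genes. These were Rxra (log2 fold change -0.36, adjusted p = 0.027), Rxrb (-0.34, 0.00679), Rxrg (-0.48, 0.0179), Med1 (-0.36, 0.0415), and Cebpa (-0.48, 0.00295). Rxra, Rxrb, and Rxrg encode the partners of PPARs, Med1 a coactivator, and Cebpa a transcription factor of hepatocytes and adipocytes. For the related receptor Ppara, the vehicle comparison gave 0.44 (adjusted p = 0.342).

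Of 14 genes known as PPARγ targets in fat or steatotic liver, 6 rose and 0 fell in Lmna ADKO vehicle livers, against 8.48% of all genes that passed. The 6 were Cidea, Cidec, Mogat1, Plin4, Ucp2, and Aqp7. The list median was 0.46 on the log2 scale, against 0.003 over all genes. This list was chosen with earlier results of these data known, so its count and median are a description and not a test. Cidec, which encodes a protein that enlarges lipid droplets, was 2.88 ± 1.97 CPM in control vehicle and 115 ± 35.2 CPM in Lmna ADKO vehicle mice, a log2 fold change of 5.31 (SE 0.569, adjusted p = 2.5e-06 from edgeR). Cidea, its relative, had 3 counts in 1 control vehicle library and 0 in the other controls, and 115 to 1179 counts in Lmna ADKO vehicle libraries. Mogat1, an acyltransferase of triacylglycerol synthesis, rose by 3.44 on the log2 scale (SE 0.343, adjusted p = 5.82e-07 from edgeR). Adipoq and Plin1, which are on the same list, did not pass. With FGF21, Cidea, Cidec, Mogat1, Plin4, and Aqp7 rose and Angptl4 fell, 6 of the 14, against 2.88% of all genes. The list median there was 0.09, against 0.018 over all genes. With only the FGF21 groups in the fit the count was 2 higher and 1 lower, and without the 3 libraries 3 higher and 0 lower. Cidec was 3.97 ± 2.46 CPM in controls and 60.9 ± 50.5 CPM in Lmna ADKO livers. Cidea was at 0 in all 3 controls and ranged from 0.755 to 28.5 CPM in Lmna ADKO livers, with a median of 2.96. Its mean there, 8.79 ± 10.4 CPM, was 56.5-fold above a floor of 3 counts per library.

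Among 12 genes known as PPARα targets in liver, Cyp4a10, a fatty acid omega-hydroxylase, passed in both genotype comparisons under edgeR. It was lower in both, and no other gene of the list passed. Over all genes, 8.48% passed with vehicle and 2.88% with FGF21, and 1 of 12 is near the vehicle share. With vehicle, DESeq2, and edgeR on genes kept by filterByExpr, each gave 2 higher and 1 lower. With FGF21, 0 passed with the series covariate, among 4-digit libraries, or without the 3 libraries. The Cyp4a10 level was 1176 ± 302 CPM in control vehicle and 570 ± 165 CPM in Lmna ADKO vehicle mice, and the log2 fold change was -1.04 (SE 0.209, adjusted p = 0.000939 from edgeR). The median of the list was -0.10 with vehicle and -0.19 with FGF21.

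Of 12 genes of lipoprotein lipolysis, 1 rose and 2 fell with vehicle. Over all genes, 8.48% passed with vehicle and 2.88% with FGF21. Lipc, the hepatic lipase, was 219 ± 42.7 CPM in control vehicle and 84.3 ± 19.8 CPM in Lmna ADKO vehicle livers, and it fell by 1.38 on the log2 scale (SE 0.157, adjusted p = 6.25e-07 from edgeR). Angptl8, an inhibitor of lipoprotein lipase, fell by 1.65 (SE 0.37, adjusted p = 0.00389 from edgeR). Apoc2, the activator of lipoprotein lipase, rose by 1.13 (SE 0.294, adjusted p = 0.0102 from edgeR), a call that was lost with the series covariate. With FGF21 the genes that passed were Lipc, lower by 1.10 on the log2 scale, and Angptl4, an inhibitor of lipoprotein lipase, at 264 ± 54.9 CPM in the 3 controls and 150 ± 35.8 CPM in Lmna ADKO livers. With the series covariate, among 4-digit libraries, or without the 3 libraries, the count of lower genes was 1. Under vehicle, Angptl4 was 135 ± 15.01 CPM in controls and 138 ± 47.4 CPM in Lmna ADKO livers. In controls, all 3 treated libraries were above all vehicle libraries, the groups differing by 0.97 on the log2 scale (adjusted p = 0.134 from edgeR), and the interaction was -0.86 (adjusted p = 0.984 from edgeR). Of this list, 0 genes passed for FGF21 in controls in the main test. DESeq2, and edgeR with only the groups compared, each called 1 higher.

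Of 11 lipoprotein receptors and adaptors, Sorl1 rose (log2 fold change 0.71) and Lrp1, the chylomicron remnant receptor, fell (-0.72) with vehicle. Over all genes, 8.48% passed with vehicle. Sorl1 overlapped between the groups, with 5 of 6 Lmna ADKO libraries above all controls, and it did not pass with the series covariate. A list of 15 other transport and binding proteins had 13 measured genes. Of these, 2, Fabp3 and Mfsd2a, rose and 1, Slc27a1, fell with vehicle, beside the same 8.48% of all genes. Fabp3 is a binding protein of heart and muscle and averaged 0.0659 CPM in controls and 1.33 CPM in Lmna ADKO livers. Slc27a1, the FATP of muscle and fat, fell by 1.15 (SE 0.17, adjusted p = 2.66e-05 from edgeR), from 19.2 ± 2.82 to 8.65 ± 1.69 CPM. Mfsd2a, a lysophosphatidylcholine transporter, rose by 0.99 (SE 0.2, adjusted p = 0.00111 from edgeR), and it passed for FGF21 in controls, from 75.6 ± 20.2 to 228 ± 10.8 CPM (log2 fold change 1.59, adjusted p = 0.00436 from edgeR). That call was lost with the animal-number series as a covariate, where 0 of all genes passed, and without the 3 libraries. All 3 treated controls have 4-digit numbers and 6 of 7 vehicle controls have 3-digit numbers. No gene of the lists passed for FGF21 in Lmna ADKO mice, where 0 of all genes passed under edgeR, 1608 had an unadjusted p under 0.05, and DESeq2 called 7 higher and 8 lower.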

How the data were processed

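Liver RNA-Seq of 24 libraries was analyzed. The authors deposited raw read counts per gene for 23972 Ensembl genes, after removal of genes with 0 counts in all samples. The submitters' processing notes name cutadapt 4.8, FastQC 0.11.8, STAR 2.7.8a, RSEM 1.3.3, and GRCm38, without their roles, so the whole-number counts may be rounded estimates. The labels and the methods name different sequencing providers. The authors tested with DESeq2 (fold change above 1.5, adjusted p under 0.05). Here, edgeR 4.0.16 under R 4.3.3 was used for TMM scaling and the quasi-likelihood test of all genes without a filter, in 1 fit of the 4 groups, at the same thresholds. A standard error is the ratio of the log2 fold change to the root of the F statistic, and 95% intervals use the t quantile of the fit. Each library has its own animal number in the labels, and p-values measure the spread between these libraries. Log2 CPM used a prior count of 2. Groups came from the labels, and libraries are numbered by ascending animal number. The 67 within-group pairs of libraries differed far beyond sampling noise (chi-square per degree of freedom of at least 14.1). Gene positions and the lengths of principal transcripts came from GENCODE M21 on GRCm38, and promoter windows from RefSeq on GRCm38.p6. The pipeline was tested on simulated data.

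All 10 members were described. From each list, up to 3 genes per genotype comparison were named, namely those that passed with the largest change and a mean log2 CPM of at least 0, together with the 5 genes most correlated with Pparg. Other genes were named after their values were seen, and 1 result of the lipoprotein receptor list is not reported here. The members, lists, and the 3 libraries left out were chosen with earlier results of these data known. Alternatives were DESeq2 1.42.0, its size factors, filterByExpr (14699 genes), the adjusted p alone, only the groups compared, the animal-number series as a covariate or 4-digit numbers only, the 3 libraries left out, and each library left out in turn.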

Additional observations from a re-analysis of the deposited data

Results flagged for a closer look

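Dixon's ratio was computed for the members and the named pathway genes in groups of 4 or more, 69 groups of values in all, and 8 had a library apart from the rest. Chance gives about 1 in 20. Among members, Fabp2 was 524 CPM in Lmna ADKO FGF21 library 7, where the next value was 280, and this is 1 of the 3 libraries that differ on gene length. Lpl was 38.7 CPM in control vehicle library 4, with the next at 14.8, and Slc27a2 was 971 CPM in Lmna ADKO FGF21 library 3, with the next at 1187.

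In the same control vehicle library 4, Apoc2 was 399 CPM, with the next at 256, and Cidea 0.138 CPM, against 0 in the other 6. Lmna ADKO FGF21 library 7 also stood apart for Angptl8, at 44.4 CPM, and Slc27a1, at 4.94 CPM. Mogat1 was 31.9 CPM in Lmna ADKO vehicle library 6, with the next at 17.1.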

How the results depend on the processing

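With vehicle, the 5 calls of Pparg, Cd36, Fabp2, Fabp4, and Slc27a5 held under all 20 alternatives. Slc27a2 passed in 8 of 20, including the adjusted p alone, which applies no fold threshold. Slc27a4 passed in 1, the adjusted p alone, and Lpl in 1, without control library 4. With FGF21, the count of 3 was 5 with filterByExpr and 1 with only the groups compared or the series covariate, and leaving out 1 library gave 1 to 3. Pparg no longer passed in 9 of 19 alternatives, including DESeq2 (0.58) and DESeq2's size factors (0.58), and Fabp4 in 7 of 19, while Fabp2 passed in 4, Lpl in 3, and Slc27a2 in 2. Among all genes, the count with FGF21 was 209 higher and 139 lower with only the groups compared, and 243 and 159 without the 3 libraries.

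Uncalled log2 fold changes near 0 changed sign. FGF21 in controls gave, with the series covariate, 0.12 for Pparg, -0.07 for Fabp2, and -0.01 for Slc27a2, and without the 3 libraries -0.14 for Fabp1, -0.39 for Fabp2, -0.21 for Vldlr, -0.04 for Slc27a2, and 0.09 for Slc27a5. FGF21 in Lmna ADKO mice gave, with the series covariate, 0 for Fabp1 and -0.08 for Fabp4, among 4-digit libraries -0.27 for Fabp4 and 0.33 for Lpl, and without the 3 libraries -0.11 for Fabp1, -0.26 for Fabp2, -0.03 for Fabp4, and 0.02 for Vldlr. The interaction was 0.18 for Fabp2 with the series covariate, and 0.01 for Cd36, 0.03 for Fabp1, 0.13 for Fabp2, and 0.22 for Vldlr without the 3 libraries. Leaving out 1 library gave -0.07 to 0.52 for Fabp1 between genotypes with FGF21. For FGF21 in controls it gave -0.20 to 0.14 for Pparg, -0.21 to 0.38 for Fabp1, -0.42 to 0.42 for Fabp2, -0.24 to 0.35 for Vldlr, -0.05 to 0.15 for Slc27a2, and -0.09 to 0.07 for Slc27a5. In Lmna ADKO mice it gave -0.11 to 0.06 for Fabp1, -0.26 to 0.10 for Fabp2, -0.18 to 0.13 for Fabp4, -0.24 to 0.09 for Lpl, and -0.13 to 0.02 for Vldlr. For the interaction it gave -0.36 to 0.23 for Fabp1, -0.44 to 0.45 for Fabp2, -0.42 to 0.17 for Vldlr, and -0.04 to 0.15 for Slc27a2. The cause was not tested.

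No paired analysis was possible because animal numbers are not shared between groups. The 3 FGF21-treated controls limit the comparisons that use them.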
